A study of Mus musculus with 14 samples.

Results

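The cytosolic heat shock genes are a group of 10 genes that encode the main chaperones of the cytosol and the factor that switches them on. They were found on the array by the gene name given for each probe, taking *Hspca* and *Hspcb* as older names of *Hsp90aa1* and *Hsp90ab1*. Of the 10 genes, 9 had a probe, out of 19505 named genes with a probe. *Hspa1b* had no probe under its name or its accession. The 9 genes had 23 of 41174 probes, with 4 for *Hspa1a*, 4 for *Hspa4*, 3 for *Dnaja1*, 3 for *Hsf1*, 2 for *Hspa8*, 2 for *Hspb1*, 2 for *Dnajb1*, 2 for *Hsp90ab1* and 1 for *Hsp90aa1*.

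The data were 14 samples of mouse blastocysts at E4.0, each measured on 1 Agilent array with Cy3. They were 4 female clones made from a cumulus cell by cell fusion (fusion clones), 4 female clones made from a cumulus cell by nuclear injection (injection clones), 3 male embryos and 3 female embryos derived by *in vitro* fertilization (IVF). Cumulus cells surround the ovulated oocyte. Fusion merges the whole donor cell with the enucleated oocyte, whereas injection delivers its nucleus through a pipette. All embryos were grown in KSOM medium, and the design text calls the controls matched for sex and genotype. The methods give a BDF1 background for recipient oocytes and IVF embryos. They describe the cumulus donors of the study as BDF1 mice heterozygous for an *Xist* knockout, a genotype that the labels of these samples do not give. The labels do not say how many embryos or cultures stand behind 1 array. The p-values below therefore measure the spread between arrays, which may be technical.

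Heat shock proteins hold other proteins in a foldable state. The HSP70 chaperones work with J proteins, which bring clients to them and start their ATP cycle, and with exchange factors that release the nucleotide. The HSP90 chaperones take over late folding steps of kinases and receptors, and small heat shock proteins bind unfolded proteins without ATP. The HSP70 and HSP90 families have constitutive members, made in most cells. They also have inducible members, whose genes are switched on by heat shock factor 1 (HSF1) when unfolded proteins accumulate. In the mouse the inducible HSP70 genes are also known among the early genes transcribed when the embryonic genome is activated.

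Each group lay on a slide of its own. The clone arrays were read on 1 scanner, on 1 day and with 1 version of the software. The IVF arrays were read on the other scanner with an older version, and males and females on different days. Nuclear transfer, slide, scanner, scan day and software therefore cannot be told apart in any difference between clones and IVF embryos. Between 57.4% and 65.2% of the spots of an array were well above background. Over 17470 probes above background on every array, the mean correlation of an array with the others of its group was between 0.944 for IVF female 1 and 0.969 for fusion clone 2. Of the marker genes of trophectoderm, 7 of 7 were above background on every array, and of those of epiblast 3 of 3 with a probe were. The summed level of the trophectoderm markers was 19.21 to 19.74 on the clone arrays and 19.68 to 19.93 on the IVF arrays (log2). Within this list *Elf5* fell 7.76-fold in fusion clones against females (limma adjusted p = 0.0154), and its difference in injection clones was -3.65 (adjusted p = 0.0659). The summed level of 5 primitive endoderm markers, which follows the brightest genes, was 15.91 to 17.29 and 15.96 to 17.09, but the median difference of the genes from females was -2.54 in fusion and -3.57 in injection clones. Of these, *Sox7* fell by 6.39 in fusion clones (adjusted p = 0.0174), and in injection clones *Sox7* and *Gata4* differed by -5.28 and -3.57 (adjusted p = 0.0641 for both). Of 8 cumulus cell markers, *Has2*, *Ptgs2*, *Ptx3* and *Tnfaip6* were each above background on 1 array, *Amhr2* and *Foxl2* on all 14, *Fshr* on 10 and *Inha* on 6. None was called, with *Amhr2* at 1.35 and 1.77 and *Foxl2* at -0.61 and -0.66 in fusion and injection clones against females, without overlap of the groups. The sum over the 8 cumulus markers was 10.05 to 11.41 on clone and 9.24 to 10.38 on IVF arrays. The part of these markers in the results below was not tested, and fewer cells of a type cannot be told apart from less RNA per cell.

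Of the 23 probes, 2 passed an adjusted p below 0.05 in fusion clones against female IVF embryos, and none did in injection clones against female IVF embryos. Both were probes of *Hsf1* and both were lower in the clones. The largest difference was that of the inducible *Hspa1a*, which was read above background on 6 of 8 clone arrays and 1 of 6 IVF arrays, but its spread between clones was so wide that it was not called. The constitutive *Hspa8* and *Hsp90ab1* differed by no more than 0.23 on the log2 scale by their brightest probes. All values are log2 of the processed intensity after quantile normalization with a floor of 16, so that 4 is the floor, and a difference of 1 is a 2-fold difference. Before normalization 6790 to 9981 spots of an IVF array had a negative processed intensity, and 0 spots of any clone array did. The low end of the scale thus differed between clones and IVF embryos. What this did to values near the floor, as those of *Hspa1a*, was not tested. The level of a probe was not read as more or less RNA than that of another probe, since probes bind with different strength. Differences between the probes of 2 genes within an array are given only to compare arrays.

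**Figure D1:**
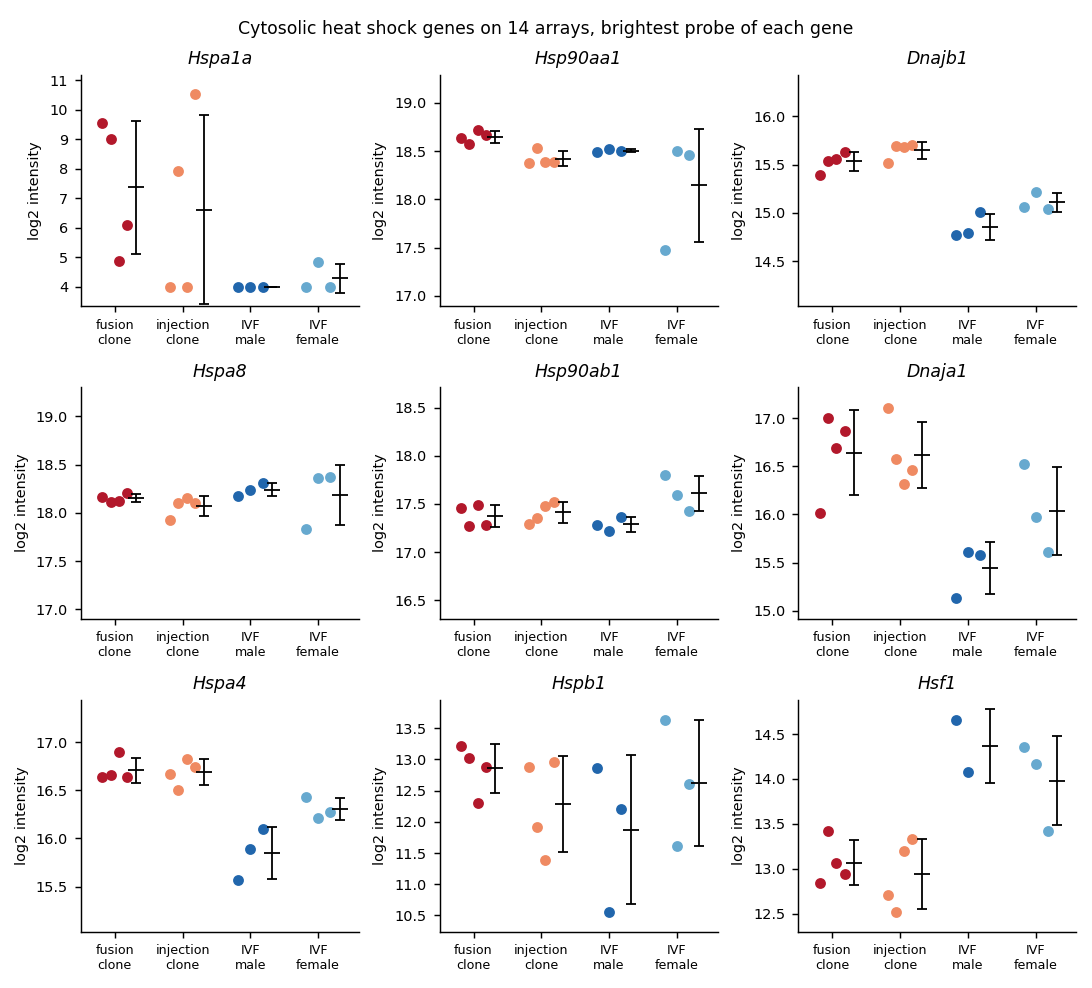
Log2 intensity of the brightest probe of each of the 9 genes (vertical axes, which differ between panels) in the 4 groups, with a point per array and the mean and SD beside it. *Hspa1a* reached 10.55 on a clone array with all IVF arrays at 4.84 or less, *Dnajb1* and *Hspa4* were above every IVF array in every clone, and *Hsf1* was low in the clones.

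*Hspa1a* encodes an inducible cytosolic HSP70. Its brightest probe read 9.55, 9.0, 4.87 and 6.10 on the 4 fusion clone arrays. On the 4 injection clone arrays it read 4, 7.92, 4 and 10.55. Of the IVF embryos, all 3 males were at 4, and the females were at 4, 4.84 and 4. Thus the fusion clones and injection clones 2 and 4 were above background, IVF female 2 was the only IVF array above it, and injection clones 1 and 3 were at the floor with the other IVF embryos. Within the fusion clones the highest array was 25.6-fold above the lowest, and within the injection clones it was 93.5-fold above the floor. The SD of 2.26 in fusion and 3.21 in injection clones compares with a median SD of 0.31 and 0.37 over all probes above background on every array. The 95th percentile of their SD was 1.06 and 1.11. This *Hspa1a* probe, above background on 7 of 14 arrays, is not among them, and its SD in injection clones mixes arrays at the floor with arrays above it. The mean difference from female IVF embryos was 3.1 on the log2 scale in fusion clones (SE 1.19, 95% interval 0.26 to 5.93, limma adjusted p = 0.155). In injection clones it was 2.34 (SE 1.72, interval -1.82 to 6.49, adjusted p = 0.477). Since 2 of 3 females were at the floor, the size of these differences followed the processing. In fusion clones it was 1.71 with normexp background correction, 4.77 with a floor of 1 and 5.77 in the deposited log2 table, and over all settings it was 1.02 to 3.93 in injection clones, with 1.02 without injection clone 4. Neither passed the test in any setting, and fusion and injection clones differed by 0.76 (SE 1.80, adjusted p = 0.929).

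Probes 2 and 3 of *Hspa1a* followed the first as far as they were above background, and probe 4 did not. Probe 2 overlaps probe 1 by 30 bases in the array's coordinates, so that it repeats the measurement rather than adding an independent one, and it read 9.47, 9.11, 4.67 and 6.26 in fusion clones and 4, 8.01, 4 and 10.60 in injection clones. Probe 3 lies 352 bases further from the 3′ end of the gene. It read 5.83 and 5.51 on fusion clones 1 and 2 and 4.77 and 6.56 on injection clones 2 and 4, and it was not well above background on any other array. The mean difference from female IVF embryos, all at the floor, was 0.83 in both fusion (limma adjusted p = 0.361) and injection clones (adjusted p = 0.486). Clones of both kinds were at the floor too, so that its size followed the processing. Over the other settings it was 0.30 to 1.48 in fusion and 0.26 to 1.11 in injection clones, without a call. Probe 4 lies 1760 bases from the 3′-most probe. It was above background on 1 IVF array and on no clone array, and its highest value was 4.81 on IVF female 3, where probe 1 was at the floor. Its difference from females was -0.28 in both fusion (limma adjusted p = 0.493) and injection clones (adjusted p = 0.501). In fusion clones it was called as lower in 2 of 15 other settings, with differences down to -3.76. Thus the 4 arrays with a reading at probe 3 were those with the 4 highest readings at probe 1.

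**Figure D2:**
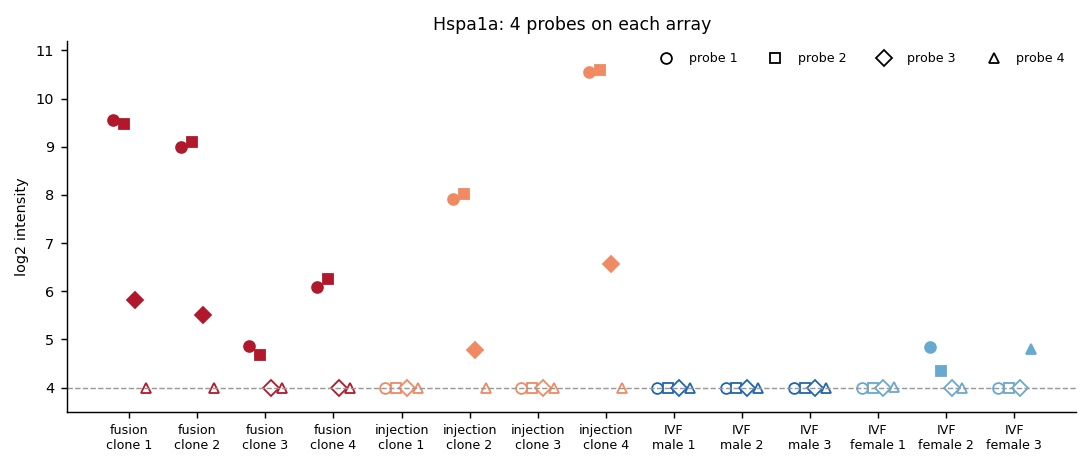
Log2 intensity (vertical axis) of the 4 *Hspa1a* probes on each of the 14 arrays (horizontal axis), with filled symbols where the probe was well above background and the floor of 4 as a dashed line. Probes 1 and 2 give nearly the same value on every array, and the values range from the floor to 10.60 within the clones.

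*Hspa1b*, the second inducible HSP70 gene, lies beside *Hspa1a* on chromosome 17. Whether the *Hspa1a* probes also bind *Hspa1b* RNA was not tested, so that the values above may be the sum of both. Of the 150 bases before the start of transcription, 149 are identical between the genes. These bases lie outside the RNA, so that their identity does not show what a probe binds. HSF1 binds to heat shock elements, which are built from inverted GAA units. The letters GAANNTTC or TTCNNGAA, each its own complement on the other strand, were searched in the promoter sequences of RefSeq (GRCm38.p6), which run from 250 bases before to 50 bases after the start. They are in 15.1% of 32851 promoters, and a further unit, as in GAANNTTCNNGAA or TTCNNGAANNTTC, which overlaps the first motif by construction, follows in 0.603%. Of 6 members with a promoter in the table, 4 hold the pair at 1 start or more, namely *Hspa1a*, *Hspa1b*, *Hspb1* and *Dnaja1*. None of the 9 promoters of these members holds the further unit. The 15.1% counts promoters and the 4 of 6 counts genes, among them the near-identical *Hspa1a* and *Hspa1b*. These shares are therefore not comparable. *Dnajb1* and *Hspa4* have neither in this window. The 150 bases before the start are given 5′ to 3′ on the strand of the gene, with the matched letters in capitals:

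Hspa1a (chr17:34972157-34972306, minus strand): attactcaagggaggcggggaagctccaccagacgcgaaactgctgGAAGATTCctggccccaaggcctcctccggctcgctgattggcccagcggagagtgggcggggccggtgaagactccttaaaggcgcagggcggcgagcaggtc
Hspa1b (chr17:34959239-34959388, minus strand): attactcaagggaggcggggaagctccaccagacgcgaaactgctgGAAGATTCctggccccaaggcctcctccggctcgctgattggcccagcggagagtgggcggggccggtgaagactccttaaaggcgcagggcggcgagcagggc
Hspb1 (chr5:135887769-135887918, plus strand): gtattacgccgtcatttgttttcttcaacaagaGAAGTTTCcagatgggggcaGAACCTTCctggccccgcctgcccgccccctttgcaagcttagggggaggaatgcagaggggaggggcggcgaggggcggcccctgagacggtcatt
Dnaja1 (chr4:40722318-40722467, plus strand): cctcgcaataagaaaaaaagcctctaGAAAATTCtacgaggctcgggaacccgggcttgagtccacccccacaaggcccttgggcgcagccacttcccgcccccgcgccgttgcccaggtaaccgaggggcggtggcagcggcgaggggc

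The match begins at -104 in *Hspa1a* and *Hspa1b*, at -117 and -97 in *Hspb1* and at -124 in *Dnaja1*, where it belongs to the first of 3 starts and the other starts have none. A match is a run of letters and not a measured site of binding. The 3 measured genes with the letters did not share a pattern in the arrays: *Hspa1a* was read mainly in clones, *Hspb1* overlapped between all groups and *Dnaja1* overlapped only through IVF female 1.

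*Hspb1* encodes the small heat shock protein HSP27. Its brightest probe read 13.21, 13.03, 12.30 and 12.88 in fusion clones and 12.88, 11.91, 11.39 and 12.96 in injection clones. In males it read 12.86, 10.55 and 12.20, and in females 13.64, 11.62 and 12.60. The groups overlapped, and IVF embryos held both the highest and the lowest array. The difference from female IVF embryos was 0.24 in fusion (SE 0.49, adjusted p = 0.768) and -0.34 in injection clones (SE 0.61, adjusted p = 0.751). A second probe, whose accession the file places on chromosome 13 rather than on chromosome 5 where RefSeq has *Hspb1*, was above background on fusion clone 1 and IVF male 3 only.

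*Hsp90aa1*, the inducible cytosolic HSP90, was bright on all arrays. It read 18.63, 18.57, 18.72 and 18.67 in fusion clones and 18.37, 18.54, 18.39 and 18.39 in injection clones. In males it read 18.49, 18.52 and 18.51, and in females 17.47, 18.51 and 18.46. Thus all arrays except IVF female 1 lay between 18.37 and 18.72, and IVF female 1 lay below them. The fusion clones were above all injection clones, by 0.23 on average (SE 0.09, unadjusted p = 0.0365, adjusted p = 0.786), which did not pass the test. The difference from females was 0.50 in fusion clones (SE 0.29, adjusted p = 0.316) and 0.28 in injection clones (SE 0.28, adjusted p = 0.582). Without IVF female 1 these differences were 0.17 and -0.06. They were 0.091 and -0.15 with scaling by the 75th percentile and 0.12 and -0.12 in the deposited log2 table.

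*Hsp90ab1*, the constitutive HSP90, read 17.46, 17.27, 17.49 and 17.28 in fusion clones and 17.29, 17.35, 17.48 and 17.52 in injection clones. It read 17.28, 17.22 and 17.37 in males and 17.80, 17.60 and 17.43 in females. All groups overlapped except the males and females, whose ranges lay side by side, and the difference of males from females was -0.32 (SE 0.22, adjusted p = 0.725). The difference from females was -0.23 in fusion (95% interval -0.65 to 0.18) and -0.20 in injection clones (-0.56 to 0.16). Its second probe, 1277 bases further from the 3′ end, had the opposite sign, with 0.58 and 0.39 (adjusted p = 0.266 and 0.444). Within an array the difference of *Hsp90aa1* minus *Hsp90ab1* was 1.18 to 1.39 in fusion clones, 0.86 to 1.18 in injection clones, 1.14 to 1.3 in males and -0.33, 0.91 and 1.02 in females. This difference says nothing of which gene has more RNA and was used only to compare arrays, and IVF female 1 alone was below 0.

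*Hspa8*, the constitutive HSP70, read 18.16, 18.11, 18.13 and 18.21 in fusion clones and 17.92, 18.11, 18.15 and 18.11 in injection clones. In males it read 18.17, 18.24 and 18.31, and in females 17.83, 18.36 and 18.37. IVF female 1 was again the lowest array. The difference from females was -0.04 in fusion (95% interval -0.50 to 0.43) and -0.12 in injection clones (-0.56 to 0.32), with adjusted p of 0.917 and 0.707. Its second probe had 0.32 in both (adjusted p = 0.460 and 0.511). The array's file places both probes on chromosome 5, whereas RefSeq has *Hspa8* on chromosome 9, and they may read a near-identical copy of the gene.

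**Figure D3:**
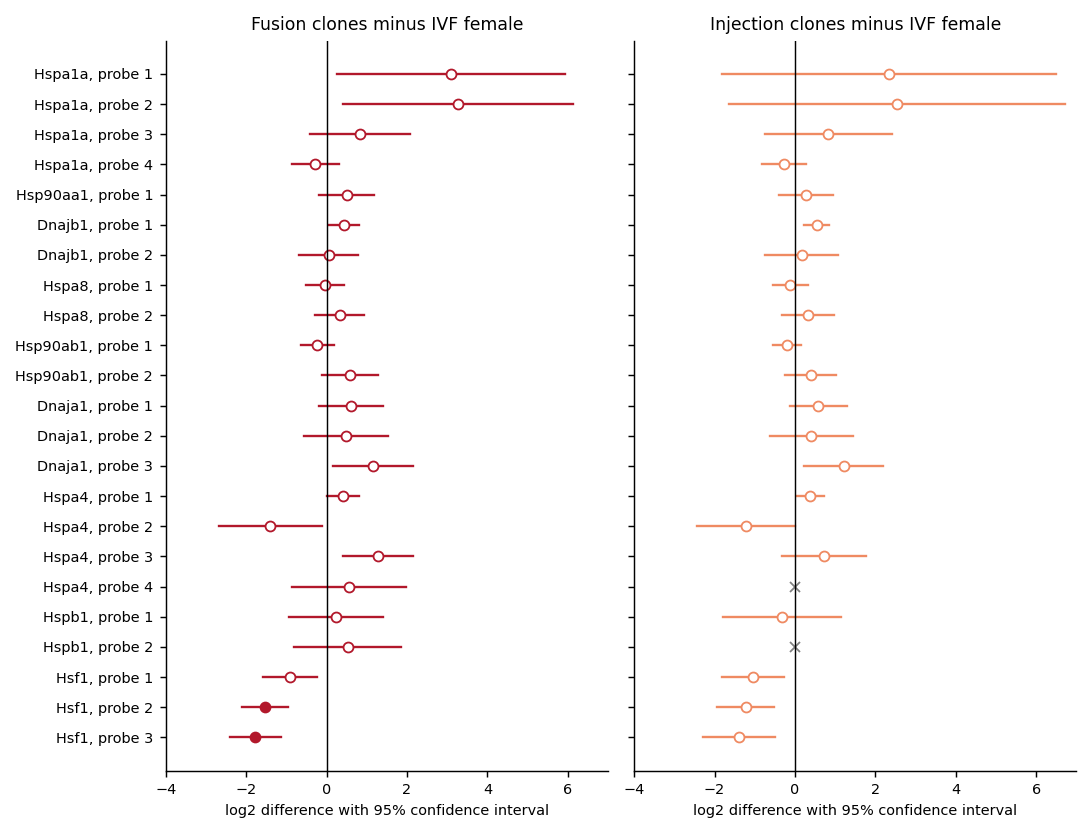
Log2 difference from female IVF embryos (horizontal axes) of the 23 probes in fusion clones (left) and injection clones (right), with the 95% confidence interval of limma and filled points where the adjusted p was below 0.05. Crosses mark 2 probes not tested in injection clones. *Hsf1* probes 2 and 3 are filled at -1.52 and -1.78 in fusion clones, no point is filled in injection clones, and *Hspa1a* has the widest intervals.

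*Hsf1* encodes the factor that induces the heat shock genes. The mean of both kinds of clone was below that of females at all 3 probes. Probe 2 read 8.69, 8.91, 8.38 and 8.65 in fusion clones and 9.18, 8.36, 8.99 and 9.28 in injection clones. In males it read 10.69, 10.25 and 9.83, and in females 9.82, 10.56 and 10.17. All 8 clones were therefore below all 6 IVF embryos. Probe 3, 78 bases from probe 2, gave 6.47, 6.46, 6.31 and 6.48 in fusion clones and 7.29, 6.09, 6.85 and 7.02 in injection clones. In males it gave 8.65, 7.57 and 7.58, and in females 7.61, 8.4 and 8.60, so that clones and IVF embryos did not overlap here either. The brightest probe, 643 bases from probe 2, ran from 12.84 to 13.42 in fusion clones, from 12.51 to 13.33 in injection clones and from 13.42 to 14.66 in IVF embryos, with IVF male 3 left out as an outlier spot. Fusion clone 2 and IVF female 3 met at 13.42.

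Against female IVF embryos, the *Hsf1* transcript in fusion clones fell by 1.52 on the log2 scale by probe 2 (SE 0.24, limma adjusted p = 0.0175) and fell by 1.78 by probe 3 (SE 0.27, adjusted p = 0.0153). The difference at the brightest probe was -0.91 (SE 0.28, adjusted p = 0.0970), which did not pass. In injection clones the 3 probes gave -1.04, -1.23 and -1.39 from the brightest to probe 3 (adjusted p = 0.122, 0.0731 and 0.0921). Fusion and injection clones differed by 0.13, -0.29 and -0.39, and none of these passed the test (adjusted p of 0.817 or more). Thus a call in fusion clones and none in injection clones does not show that the 2 kinds of clone differ. Males and females differed by 0.39, 0.08 and -0.27. Over the 17 other settings tried, probe 2 was called in 14 and probe 3 in 16 in fusion clones. The difference ran from -1.71 to -1.34 for probe 2 and from -2.07 to -1.19 for probe 3. Probe 3 is the dimmest of the 3, and what the unlike low end of the scale did to it was not tested. Probe 2 was not called without fusion clone 1 or without fusion clone 3 (adjusted p = 0.051 in both), nor with a replicate block.

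*Dnajb1* and *Dnaja1* encode J proteins of the cytosol, which work with HSP70, and *Dnajb1* is the more strongly induced by heat. *Dnajb1* read 15.40, 15.54, 15.56 and 15.63 in fusion clones and 15.52, 15.69, 15.68 and 15.70 in injection clones. It read 14.77, 14.79 and 15.01 in males and 15.06, 15.22 and 15.04 in females. All 8 clones were above all 6 IVF embryos. The difference from females was 0.42 in fusion clones (SE 0.16, adjusted p = 0.146) and 0.54 in injection clones (SE 0.13, adjusted p = 0.0702), which is a 1.34-fold and a 1.45-fold difference. Neither passed in this fit. With other settings it was called in 3 of 17 for fusion clones and 4 of 17 for injection clones, and the difference of this probe was between 0.32 and 0.60 in all. With the mean of both *Dnajb1* probes it was 0.24 in fusion clones (adjusted p = 0.506) and 0.35 in injection clones (adjusted p = 0.416). The groups overlapped with scaling by the 75th percentile. The second probe, 1435 bases further from the 3′ end, had no such difference (0.05 and 0.17).

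*Dnaja1* had 3 probes, and on each the clones were high. The brightest read 16.01, 17.00, 16.69 and 16.87 in fusion clones and 17.10, 16.57, 16.32 and 16.46 in injection clones. It read 15.13, 15.62 and 15.58 in males and 16.52, 15.98 and 15.61 in females. IVF female 1, at 16.52, was thus within the range of the clones, and the other 5 IVF arrays were below all 8 clones. On probes 2 and 3, too, the other 5 IVF arrays were below all 8 clones, while IVF female 1 was above every clone at probe 2 (16.60) and within their range at probe 3. On these probes clones ran from 15.79 to 16.24 and from 13.74 to 15.15, and IVF embryos without IVF female 1 from 14.14 to 15.54 and from 12.13 to 13.33. The differences from females were 0.61, 0.48 and 1.15 in fusion clones and 0.58, 0.41 and 1.21 in injection clones from the brightest probe to probe 3, with no adjusted p below 0.134. Within an array, *Dnajb1* minus *Dnaja1* was -1.58 to -0.61 in clones and -1.46 to -0.36 in IVF embryos, so that this pair did not separate the groups.

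*Hspa4* encodes APG-2, a relative of HSP70 that acts as a nucleotide exchange factor. Its 2 brightest probes went in opposite directions. Probe 1 read 16.64, 16.66, 16.90 and 16.63 in fusion clones and 16.67, 16.50, 16.83 and 16.74 in injection clones. It read 15.56, 15.89 and 16.10 in males and 16.43, 16.21 and 16.27 in females, so that all 8 clones were above all 6 IVF embryos. Probe 2, which was designed on the cDNA AK220167 and lies nearest to the 3′ end, ran from 11.12 to 12.27 in clones and from 12.35 to 14.39 in IVF embryos, so that all 8 clones were below. With scaling by the 75th percentile and in the deposited log2 table, clones and IVF embryos overlapped at both *Hspa4* probes. The differences from females were 0.40 and -1.40 in fusion clones and 0.38 and -1.22 in injection clones, and none was called (adjusted p from 0.156 to 0.218). Probe 3, which lies 20796 bases from probe 2 in the genome and thus in an inner part of the gene, had 1.27 and 0.72 (adjusted p = 0.0770 and 0.386). Probe 4 was above background on 2 of 14 arrays. A change of the *Hspa4* gene as a whole therefore cannot be read from these probes.

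**Figure D4:**
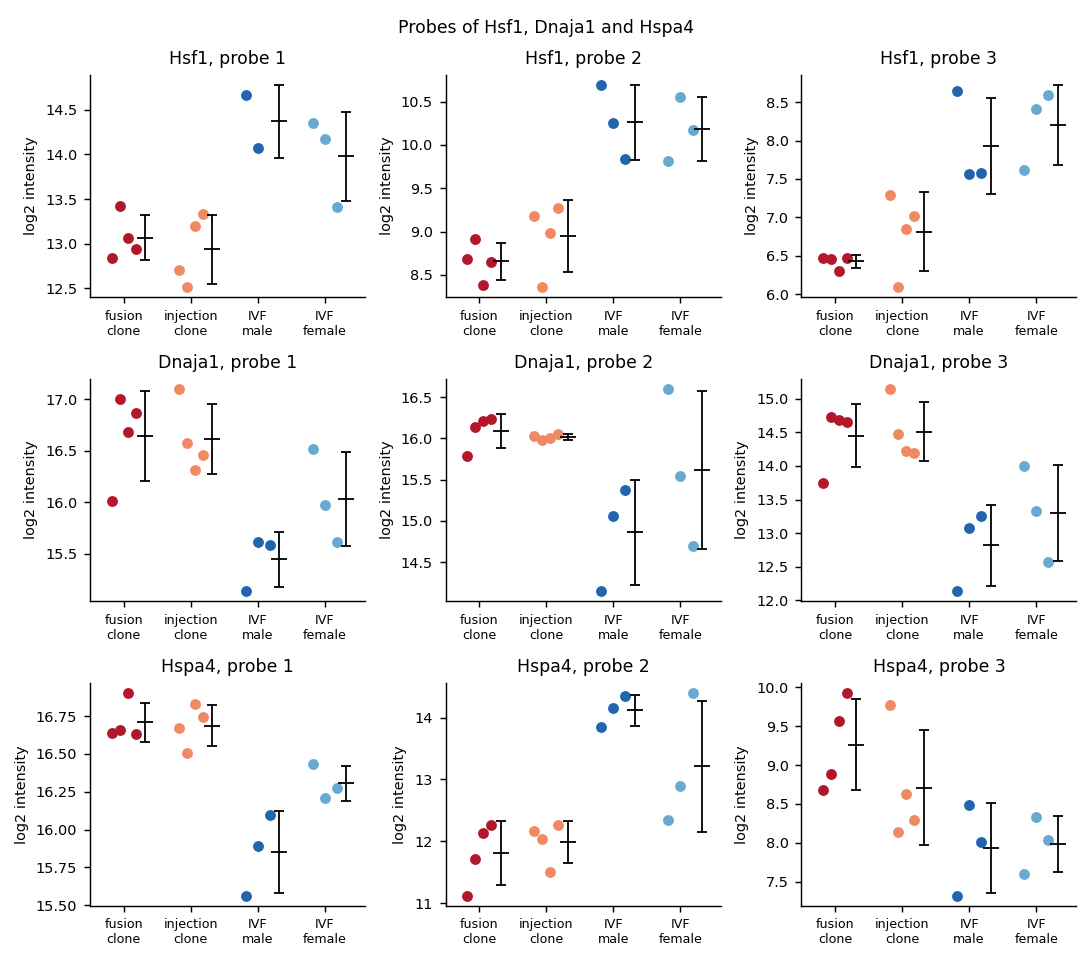
Log2 intensity (vertical axes, which differ between panels) of 3 probes each of *Hsf1*, *Dnaja1* and *Hspa4* in the 4 groups, with a point per array and the mean and SD beside it. Clones are low at all *Hsf1* probes and high at the *Dnaja1* probes except for IVF female 1, whereas *Hspa4* probe 1 is high and probe 2 low in clones.

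These counts were read against the whole array. Of the 32370 probes tested in fusion clones against females, 9.37% were called and 5.02% were called as lower, and of the 23 member probes 2 were called, both lower. In injection clones 3.61% of 32801 probes were called and 2.09% as lower, and of the 21 member probes tested 0 were called by limma. At an unadjusted p below 0.05 there were 10 of 23 member probes in fusion clones, beside 27.1% of all probes, and 6 of 21 in injection clones, beside 23.1%. The calls in all probes held 46.5% higher ones in fusion clones and 42.0% in injection clones, and these shares were 62.3% and 63.5% in the deposited log2 table, in which the median of all differences moved from -0.12 to 0.04 and from -0.08 to 0.07. The rule of the methods is a moderated t test at the 5% level with a 2-fold filter. The methods do not say whether p was adjusted, and an unadjusted p below 0.05 was used here. By this rule 17.3% of all probes and 7 member probes passed in fusion clones, with 4 higher and 3 lower. In injection clones 14.1% and 4 member probes passed, with 1 higher and 3 lower. The median difference over the member probes was 0.42 in fusion and 0.32 in injection clones, beside -0.12 and -0.08 over all probes. These comparisons share the female arrays.

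All 8 clone arrays were above all 6 IVF arrays for 2 of 23 member probes, *Dnajb1* probe 1 and *Hspa4* probe 1, beside 2.26% of 34978 probes. They were below for 3, namely *Hsf1* probes 2 and 3 and *Hspa4* probe 2, beside 4.03%. Without IVF female 1, 6 were above, beside 3.3%, and 3 were below, beside 5.48%. The 4 that joined were the 3 *Dnaja1* probes and *Hspa8* probe 2.

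The 2 kinds of clone and the 2 sexes of IVF embryos gave a scale for these differences. Each of these comparisons is itself between slides, and that of the sexes is also between scan days. Between fusion and injection clones 0 of 22 member probes were called, beside 0% of all probes, and 1 had an unadjusted p below 0.05, beside 6.14%. Between males and females 0 of 22 were called by limma, beside 0.0593% of all probes, and 0 had an unadjusted p below 0.05, beside 7.76%. In males the *Hspa4* and *Dnaja1* brightest probes differed from females by -0.45 and -0.59 (adjusted p = 0.669 and 0.676), beside 0.40 and 0.61 in fusion clones against the same females. No member was called between the sexes with the replicate number as a block either.

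The wider chaperone network was measured by 81 genes in 8 lists. Of 78 tested in fusion clones against females, 5 were called higher and 2 lower, which is 8.97% beside the 9.37% of the array. Of 80 tested in injection clones, 2 were higher and 2 lower, which is 5.0% beside 3.61%. None was called between the kinds of clone or between the sexes. The lists were set with earlier results of these arrays known. Each gene is given by its brightest probe. Of the genes called below, *Dnajb4* has 4 probes and *Ptges3*, *Dnajc2*, *Bag3*, *Hsp90b1* and *Hyou1* have 2 each, and their other probes are not given. With the mean of the probes of a gene, 7 genes were called in fusion and 4 in injection clones.

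Among HSP90 co-chaperones 1 of 13 rose in both kinds of clone. This was *Ptges3*, which encodes the p23 protein that holds HSP90 in its closed form. It read 16.19 to 16.46 in fusion clones, 15.99 to 16.47 in injection clones and 14.96 to 15.28 in females, with differences of 1.15 (SE 0.17, adjusted p = 0.0151) and 1.16 (SE 0.17, adjusted p = 0.0332). The males, at 15.77 to 16.01, were between females and most clones. The other 12 co-chaperones, which include *Stip1*, *Cdc37* and *Ahsa1*, were not called in either.

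Of 11 J proteins, *Dnajc2*, which encodes the ribosome-bound factor MPP11, rose 4.15-fold in fusion clones (14.49 to 14.88 beside 12.02 to 13.34 in females, adjusted p = 0.0206). *Dnajb4* rose 5.22-fold in injection clones (11.11 to 12.10 beside 8.99 to 9.56, adjusted p = 0.0260). In the other kind of clone these genes had 1.54 and 1.68 on the log2 scale without a call (adjusted p = 0.0950 and 0.0569), and fusion and injection clones were not called as different. Of the 14 subunits of chaperonin and prefoldin, *Pfdn2* rose 2.82-fold in fusion clones (adjusted p = 0.0274), and the chaperonin subunits *Tcp1* and *Cct2* to *Cct8* were not called. In injection clones *Pfdn2* differed by 1.39 without overlap of the groups and without a call (limma adjusted p = 0.0911). Of 11 relatives and exchange factors of HSP70, *Bag3*, a partner of HSP70 that HSF1 induces, rose 1.84-fold in fusion clones (adjusted p = 0.0283). In injection clones *Bag3* differed by 0.72 without overlap of the groups and without a call (limma adjusted p = 0.0621). This gene is under the 2-fold limit for naming and was added after its value was seen. *Hsph1*, the inducible HSP110, did not pass (0.21 and -0.03).

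Of 12 chaperones of mitochondrion and endoplasmic reticulum, *Hsp90b1*, the HSP90 of the endoplasmic reticulum, fell by 0.99 in fusion clones (adjusted p = 0.0197) and fell by 1.0 in injection clones (adjusted p = 0.0314), just under the 2-fold limit, and it too was added after its values were seen. *Hyou1*, an HSP110 relative of the same compartment, rose 2.52-fold in fusion clones (adjusted p = 0.0283). In injection clones *Hyou1* differed by 1.35 without overlap of the groups and without a call (limma adjusted p = 0.0685). *Serpinh1*, the collagen chaperone HSP47, was 14.22 to 15.17 in females and 10.12 to 11.73 in injection clones, an 11.5-fold fall (adjusted p = 0.0269), and in fusion clones the difference was -2.32 (adjusted p = 0.0708). *Hspd1* and *Hspe1* of the mitochondrion were not called. *Hmox1*, the heme oxygenase induced by oxidative stress, was at 8.57 to 8.62 in all 4 group means, with SDs of 0.32 to 1.47. Of the 8 stress genes of its list, 4 were above and 4 below females by mean in each kind of clone. Among them *Gclm* differed by 1.37 in fusion and 1.71 in injection clones without overlap of the groups, and was not called (limma adjusted p = 0.116 and 0.149). *Txnrd1* differed by -0.72 and -0.46 (adjusted p = 0.273 and 0.501). None of the other small heat shock proteins or heat shock factors was called, and *Hsf2* and *Hsf4* were above background on 2 and 0 of 14 arrays.

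These calls were open to single arrays. In fusion clones the 7 calls became 2 without fusion clone 1 or fusion clone 3, 3 without fusion clone 2 or IVF female 3, and 4 without fusion clone 4. In injection clones the 4 calls became 0 by limma without injection clone 1, 2 or 3 or IVF female 3, and 2 without IVF female 1 or IVF female 2.

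**Figure D5:**
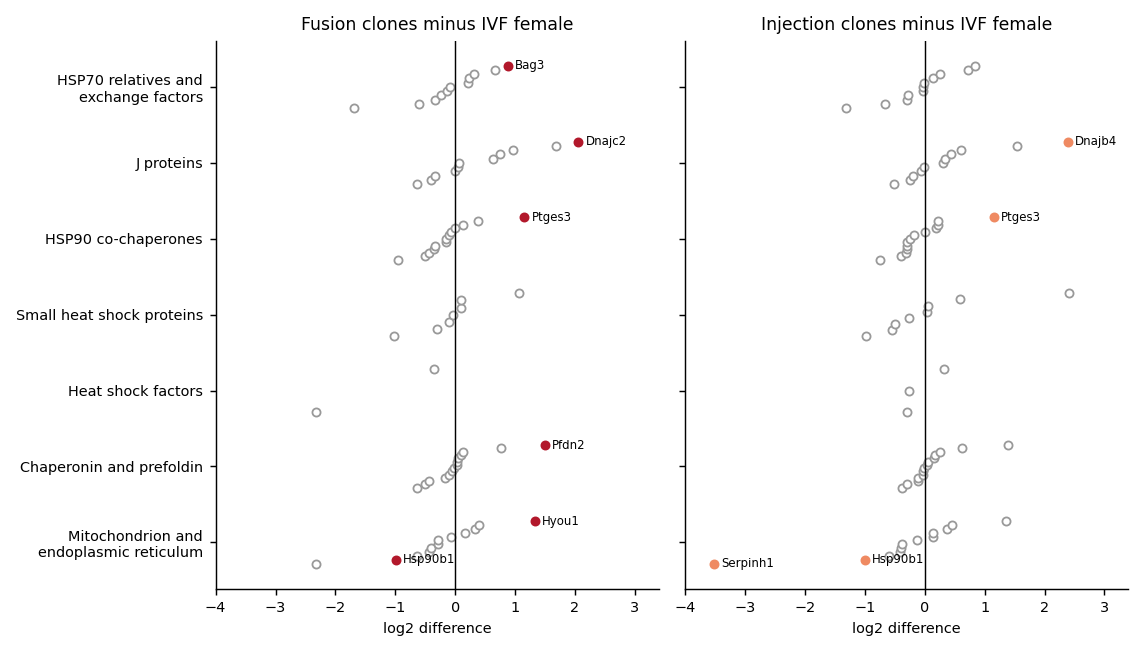
Log2 difference from female IVF embryos (horizontal axes) of the genes of 7 of the 8 chaperone lists (vertical axis), by the brightest probe of each gene, in fusion clones (left) and injection clones (right). Filled and named points had an adjusted p below 0.05, and *Ptges3* and *Hsp90b1* are filled on both sides.

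Genes with the pattern most like that of a member were found by Pearson's correlation over the 14 arrays. For *Hspa1a* they were *Zfp451* (0.94), *Fancd2* (0.91), *B230217O12Rik* (0.89), *Exoc6b* (0.87) and *Zbbx* (0.86). All were dim, at the floor on at least 1 clone array and at no more than 7.75 on any, so that the likeness rests on which clone arrays lay above the floor. Without injection clone 4 and fusion clone 1 the values were 0.75 to 0.91. For *Hsp90aa1* they were *Trpc2*, *Rapgef6*, *Ahdc1*, *Dennd1b* and *Fdps* (0.95 to 0.96). These followed IVF female 1, and without it and fusion clone 3 they were 0.39 to 0.83. The points share slide and scanner, and no test was made.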

How the data were processed

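The authors deposited, per array, Feature Extraction output with the processed intensity of each spot (background-subtracted, not normalized between arrays; 10.5.1.1 for clones, 9.5.3.1 for IVF embryos, per the file headers), and log2 values in a separate table. The processing notes name version 10.5.1. The RNA was amplified in 2 rounds, which favours 3′ ends. In each file 1639 control spots were left out and 101 to 338 outlier spots set to missing. Intensities were quantile-normalized over 14 arrays, set to a floor of 16 and converted to log2. The 32021 to 32801 probes that exceeded background anywhere in a comparison were tested by limma 3.58.1 (R 4.3.3) with Benjamini-Hochberg adjustment, and the code was tested on simulated data. A gene is given by its brightest probe over the arrays. Chaperone genes of the lists are named where called, changed by 2-fold or more, and without overlap of the groups. The members and lists were chosen with earlier results of these data known. RefSeq names matched 79.5% of probes. Arrays give no counts, so that their number limits the precision. Same-numbered male and female arrays had correlated deviations (0.11 to 0.13), whereas those of clones and females did not (-0.07 to 0.06). Alternatives were 75th percentile scaling, normexp, the deposited log2 table, other filters, floors and fits, and each array left out. The called gene of 1 chaperone list is not reported here, although the counts over all lists include it.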

Additional observations from a re-analysis of the deposited data

Results flagged for a closer look

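In 7 of 42 groups of 4 arrays, 1 array stood apart from the other 3 by Dixon's test, which marks about 5% of groups by chance. In 2 of the 7 the other 3 arrays were tied at the floor, where any value above it is marked. *Dnaja1* probe 3 was 13.74 on fusion clone 1, below the others. *Dnajb1* probe 1 was 15.52 on injection clone 1, below the others. *Hsf1* probe 3 was 6.31 on fusion clone 3, below the others. *Hsp90aa1* was 18.54 on injection clone 2, above the others. *Hspa4* probe 1 was 16.90 on fusion clone 3, above the others. *Hspa4* probe 4 was 6.24 and *Hspb1* probe 2 was 6.10 on fusion clone 1, with the other fusion clones at the floor.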

How the results depend on the processing

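The count of called member probes in fusion clones (2) was 7 by the rule of the methods, 1 with the mean of the probes of a gene, 0 with a replicate block, and 1 to 2 with an array left out. In injection clones (0 by limma) it was 4 by the rule of the methods, 1 without a filter, 1 with a floor of 32, 4 with all 4 groups in one fit and 1 with a variance trend. The block also took the calls over all probes from 3033 and 1184 to 0, and same-numbered clones and females did not deviate together. The count of probes without overlap (5) was 3 with 75th percentile scaling, all of *Hsf1*, with probe 1 joining and *Dnajb1* and both *Hspa4* probes lost. It was 5 in the deposited log2 table, where both *Hspa4* probes were lost and *Hsf1* probe 1 and *Hspa1a* probe 4 joined, and 5 to 9 with an array left out. Chaperone list calls in fusion clones (7) were 11 with a variance trend, 0 with the block and 2 to 7 with an array left out. In injection clones (4) they were 11 by the rule of the methods, 2 in the deposited log2 table, 7 with a filter on every array of a group, 2 with a floor of 1, 7 with a floor of 32, 11 with all groups in one fit, 7 with a variance trend, 0 with the block and 0 to 3 with an array left out. The cause of these shifts was not tested. The list alternatives and the omission of arrays from the overlap were chosen after seeing the data. The slide could not be fitted as a block, since each slide holds 1 group.

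Sign changes of brightest-probe differences were all in values without a call. With the mean of the probes of a gene, against females, *Hsp90ab1* gave 0.17 and *Hspa8* 0.14 in fusion clones, and *Hsp90ab1* 0.094, *Hspa4* -0.039 and *Hspa8* 0.10 in injection clones. Between clones this mean gave -0.18 for *Hsf1* and 0.078 for *Hsp90ab1*, and between sexes 0.0086 for *Dnajb1*, -0.56 for *Hsf1*, 0.17 for *Hspa4* and -0.19 for *Hspa8*. With 75th percentile scaling *Hsp90aa1* in injection clones was -0.15 and *Hspa4* between clones -0.015. The deposited log2 table gave -0.12 and -0.0095 for these and 0.47 for *Hspa1a* between sexes. With normexp, *Hspa8* was 0.028 in injection clones and -0.056 between clones, and *Hsp90ab1* 0.082 between clones. With an array left out, the range crossed 0 for *Hspa8* (-0.22 to 0.056) and *Hspb1* (-0.27 to 0.74) in fusion clones and for *Hsp90aa1* (-0.060 to 0.46) and *Hspb1* (-0.84 to 0.17) in injection clones. It also did between clones for *Dnaja1* (-0.091 to 0.24), *Hsf1* (-0.012 to 0.26), *Hsp90ab1* (-0.076 to 0.0022), *Hspa1a* (-0.11 to 2.07) and *Hspa4* (-0.044 to 0.068), and between sexes for *Hspa8* (-0.13 to 0.14).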
